A study of Saccharomyces cerevisiae with 27 samples.

Results

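Glycogen metabolism was represented by 10 genes of Saccharomyces cerevisiae: PGM2, UGP1, GLG1, GLG2, GSY1, GSY2, GLC3, GPH1, GDB1 and GAC1. They were taken by their systematic names from the 7122 genes of the count table, with earlier results of these data known. All 10 were among the 6386 genes with enough counts to be tested. Their mRNA was measured by poly(A)-selected RNA sequencing in 3 haploid strains. The C719A and the G906D strains carried a point mutant of alanyl-tRNA synthetase (AlaRS), the enzyme that charges tRNA with alanine, and the WT strain carried the unmutated enzyme. The study describes all 3 strains as BY4741 derivatives in which the chromosomal ALA1 gene, which encodes AlaRS, was deleted and AlaRS was supplied from a single-copy plasmid. In its description, C719A impairs the editing of mischarged tRNA and G906D lowers aminoacylation. Log-phase cells from YPD, a rich glucose medium, at 30 °C were moved to 37 °C and collected at 0 h, 1 h and 2 h of heat. The 9 groups of strain and time had 3 libraries each, named A, B and C. No library came from cells kept at 30 °C for 1 h or 2 h, so heat and longer growth cannot be told apart in changes over time. The question was how the mRNA of the glycogen enzymes differed between each mutant and the WT at each time and how it moved upon heat.

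Glycogen is the branched glucose store of yeast, laid down as cells near the end of growth or meet stress and broken down when glucose is needed. Glucose 6-phosphate is converted to glucose 1-phosphate and then to UDP-glucose, glycogenin starts a chain on itself, glycogen synthase extends it and the branching enzyme adds branches, while glycogen phosphorylase and the debranching enzyme take it apart. Synthase and phosphorylase are also switched by phosphorylation, so mRNA levels do not give the activity of the enzymes or the amount of glycogen.

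Libraries held 14471528 to 23057641 counts in total, with a median of 17523615. Each of the 10 genes had between 463 and 53355 counts in every library, so counting error was small beside the spread between replicates. Between replicates, chi-square per degree of freedom over all genes was 6.95 to 119 in 27 pairs, and no library was a copy of another. ALA1 had 61262 to 88037 counts in the C719A strain, 27843 to 42280 counts in the G906D strain and 24387 to 46711 counts in the WT, which does not check the point mutations. Of the marker genes that BY4741 lacks or carries disrupted, URA3 and MET17 were without a count in any of the 27 libraries (0 counts) and HIS3 had 535 to 2049 counts. LEU2, the marker of the AlaRS plasmid, had 17512 to 66335 counts in the C719A strain, 8448 to 14590 in the G906D strain and 5101 to 12680 in the WT. Whether the higher ALA1 and LEU2 counts of the C719A strain bear on its glycogen genes was not tested. The α-cell genes STE3 and MF(ALPHA)1 had 68.6 to 267 FPKM and 355 to 5282 FPKM over the 27 libraries, and the a-cell genes STE2 and BAR1 had 6.01 to 69.9 FPKM and 3.93 to 11.3 FPKM, although BY4741 is an a strain. In the G906D strain, the 528 tested genes of chromosome VII had a median log2 fold change against the WT of 0.91, 0.96 and 0.94 at 0 h, 1 h and 2 h, against -0.09, -0.04 and -0.07 for the other genes. None of the 10 glycogen genes lies on chromosome VII. Each library pools a whole culture, so a smaller share of expressing cells and less mRNA per cell cannot be told apart.

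The 10 genes lie on 8 chromosomes of the R64 assembly: PGM2 (YMR105C) on chrXIII:475897-477606, UGP1 (YKL035W) on chrXI:369891-371390, GLG1 (YKR058W) on chrXI:552770-554620, GLG2 (YJL137C) on chrX:154985-156127, GSY1 (YFR015C) on chrVI:174265-176391, GSY2 (YLR258W) on chrXII:660716-662833, GLC3 (YEL011W) on chrV:133120-135234, GPH1 (YPR160W) on chrXVI:861306-864014, GDB1 (YPR184W) on chrXVI:902044-906654 and GAC1 (YOR178C) on chrXV:667860-670241. GSY1, GLG2, GAC1 and PGM2 are on the minus strand and the other 6 on the plus strand. None of these regions overlaps another annotated gene. No stretch of 50 bases of any of them occurs elsewhere in the genome, which bears on the close paralogs GSY1 and GSY2, GLG1 and GLG2, and PGM2 and PGM1.

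The upstream sequences of the 10 genes were searched on both strands for short motifs. These were AGGGG, the stress response element bound by Msn2 and Msn4, and GAANNTTC, the core of the heat shock element. Whether either motif bears on the differences between the strains was not tested. AGGGG was present in 50% of the 10 windows that run from 250 bases before to 50 bases after the start codon, against 21.6% of the 6001 windows of all protein-coding genes. In the 500 bases before the start codon, a window chosen after the values were seen, it was present in 80% of the 10 genes and 34.1% of 6000 genes, and PGM2 held 5 matches and UGP1 held 4. GLG1 and GAC1 held none in either window. Other gene lists, described below, also held AGGGG. In the shorter and longer window it was in 57.1% and 85.7% of 7 trehalose genes and 73.7% and 100% of 19 general stress effectors. It was in 40% and 80% of 5 genes at the entry of glucose and 41.2% and 64.7% of 17 genes of glycogen control. Of 9 stress regulators, 0% and 33.3% held it. GAANNTTC was in none of the 10 genes in either window, against 11.8% and 19.2% of all genes. A match of such short letters is a description of the sequence and not a binding site. The match nearest upstream of the start codon is shown for 7 of the 8 genes that held one, from RefSeq R64, 5′ to 3′ on the strand of the gene, with AGGGG or its reverse complement CCCCT in capitals. The UGP1 line begins with a further match, left in lower case. The first base of the match in capitals lies 216 (PGM2), 260 (UGP1), 107 (GLG2), 332 (GSY1), 196 (GSY2), 213 (GLC3) and 192 (GDB1) bases before the start codon.
PGM2, chrXIII:477805-477834, minus strand: ccaggaacaaacAGGGGttgaaaagtgtaa
UGP1, chrXI:369619-369648, plus strand: ccccttcccccgCCCCTtctcgaacagcct
GLG2, chrX:156217-156246, minus strand: catataaagatgAGGGGagtagatcaagga
GSY1, chrVI:176706-176735, minus strand: ccacaagtaataCCCCTtggaggatttttc
GSY2, chrXII:660508-660537, plus strand: gaacgcaattcaCCCCTttctttcttatgc
GLC3, chrV:132895-132924, plus strand: aagctttgtccaAGGGGctgttgcaacggt
GDB1, chrXVI:901840-901869, plus strand: caacagcagcaaCCCCTtgaaatggccaat

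Levels of different genes were compared per length, as the authors' FPKM (counts divided by gene length and by the library's total). In the WT at 0 h the order was PGM2 (1076 ± 183 FPKM, SD, n = 3), UGP1 (871 ± 112), GSY1 (848 ± 117), GSY2 (679 ± 149), GLC3 (403 ± 53.5), GAC1 (276 ± 55.8), GPH1 (248 ± 73.1), GDB1 (179 ± 50.2), GLG1 (98.4 ± 9.14) and GLG2 (32.0 ± 7.78). The ranges of neighbours overlapped from PGM2 down to GSY2 and from GAC1 down to GDB1, and they did not overlap between GSY2 and GLC3, GLC3 and GAC1, GDB1 and GLG1, or GLG1 and GLG2. In the WT at 2 h, GLC3 reached 1032 ± 27.4 FPKM and GDB1 588 ± 49.1 FPKM, while GSY1 had 505 ± 98.7 FPKM (SD, n = 3). Before heat in the WT, the precursor enzymes and the synthases were thus the most abundant of the 10 mRNAs, and both glycogenins the least.

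**Figure D1:**
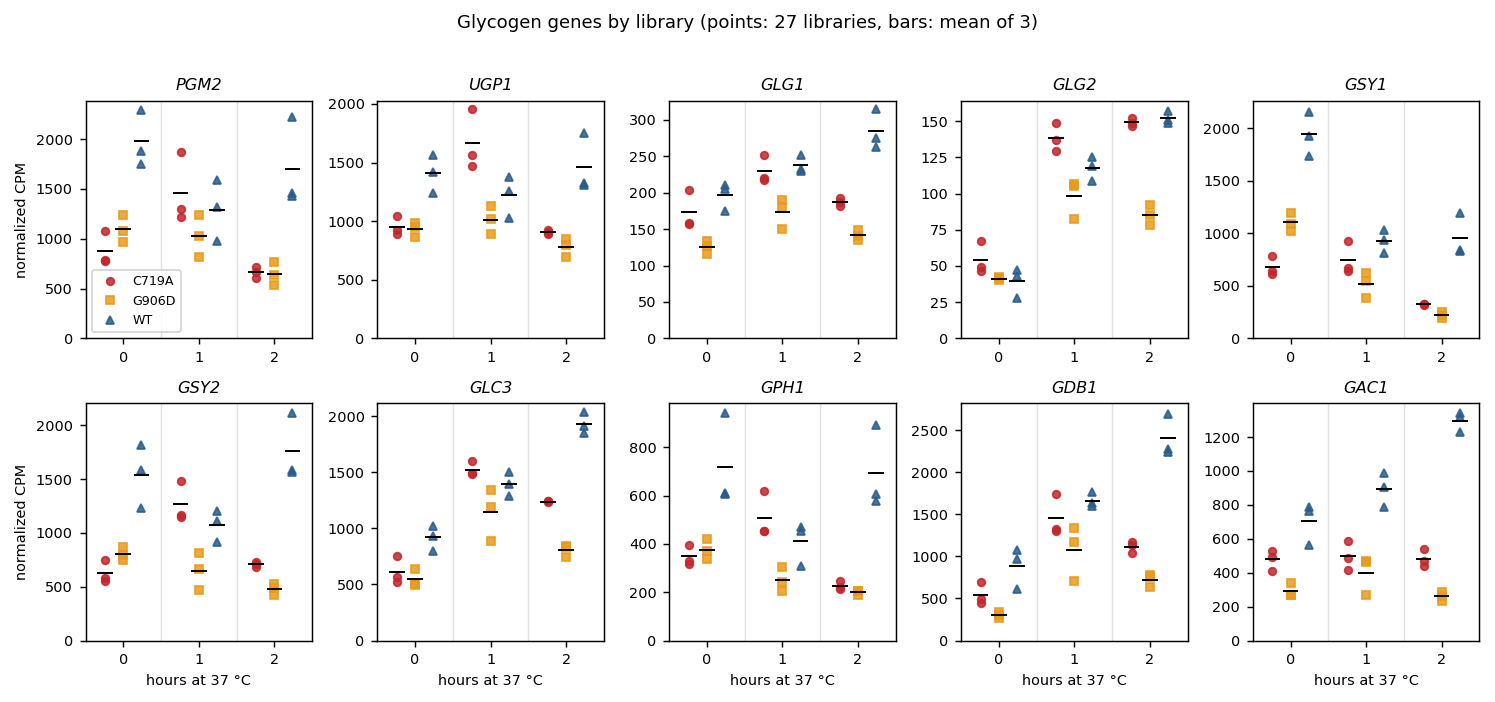
Normalized CPM (y axis) of the 10 glycogen genes by hours at 37 °C (x axis) in the C719A (circles), G906D (squares) and WT (triangles) strains, where each point is 1 library and each bar the mean of 3. At 2 h the C719A libraries all lie below those of the WT for 9 of 10 genes (36.8% of all genes). The G906D libraries do so for 10 of 10 (37.3% of all genes). For GLG2 the C719A libraries, at 147 to 152 CPM, overlap those of the WT, at 148 to 157 CPM.

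Compared with the WT, most of the glycogen genes were lower in both mutants before heat and again after 2 h. At 1 h most were lower in the G906D strain, and few passed the test in the C719A strain. Before heat, 8 of 10 were lower and 1 was higher in the C719A strain (edgeR quasi-likelihood test, Benjamini-Hochberg adjusted p under 0.05 over all genes), where 26.7% of all 6386 genes were called lower and 27% higher. In the G906D strain 9 of 10 were lower before heat and none higher, where 33.2% of all genes were called lower and 30.9% higher. At 1 h, 1 of 10 was lower and 1 higher in the C719A strain (18.4% and 17.3% of all genes). Of the 10, 6 were then lower and none higher in G906D cells (15% and 16.3% of all genes). At 2 h, 9 of 10 were lower and none higher in the C719A strain (28.9% and 27.5% of all genes). All 10 were then lower in G906D cells (33.2% of all genes lower, 31.9% higher). All 3 libraries of the mutant lay below all 3 of the WT at 2 h for 9 of 10 genes in the C719A strain, as for 36.8% of all genes, and for 10 of 10 in the G906D strain, as for 37.3% of all genes. The median log2 fold change of the 10 genes in C719A cells was -0.64 at 0 h, 0.15 at 1 h and -1.21 at 2 h. In G906D cells it was -0.83 at 0 h, -0.55 at 1 h and -1.57 at 2 h, and the median over all genes stayed between -0.03 and 0.01 in these comparisons. Both mutants were set against the same WT libraries, so the values of the mutants are not independent of each other. Without correction for RNA composition (library size alone), the medians over all genes in the G906D strain were -0.37, -0.15 and -0.15, and these shifts bear on its glycogen values.

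**Figure D2:**
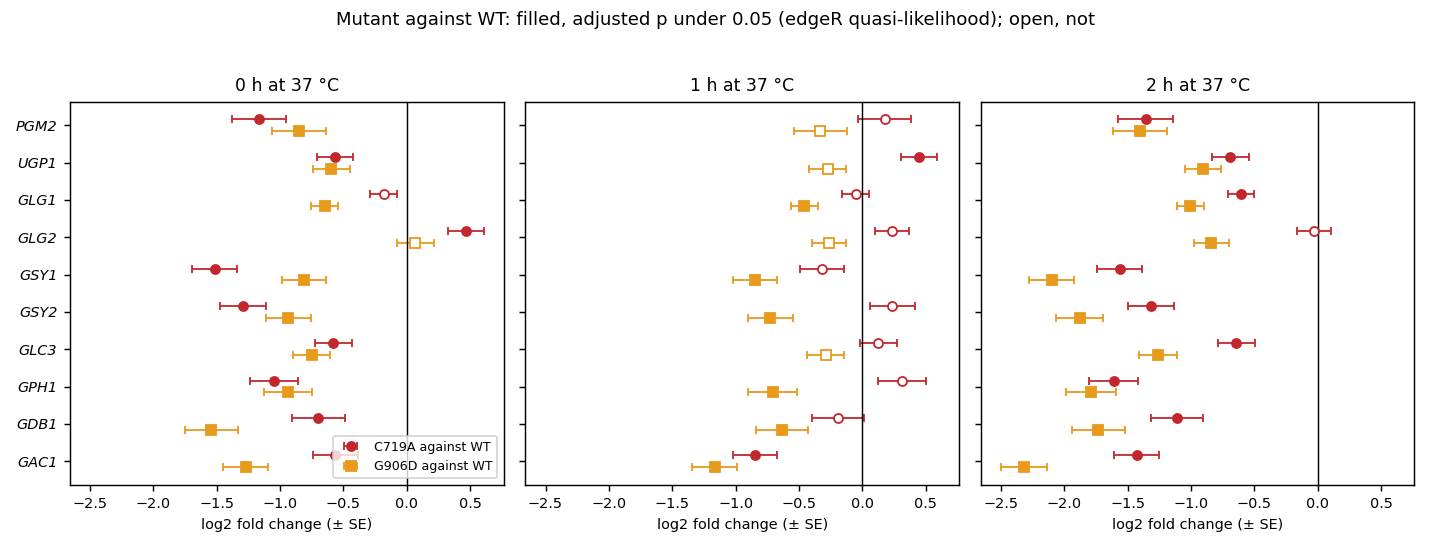
Log2 fold change (x axis, ± SE) of each glycogen gene in the C719A (circles) and G906D (squares) strains against the WT at 0 h, 1 h and 2 h at 37 °C, with filled symbols for an adjusted p under 0.05. At 1 h most C719A symbols are open and lie on either side of 0, while at 2 h all 10 G906D symbols are filled, between -2.32 for GAC1 and -0.84 for GLG2.

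PGM2 encodes the major phosphoglucomutase, which makes glucose 1-phosphate, and UGP1 the enzyme that makes UDP-glucose from it. PGM2 had 777, 1082 and 785 normalized CPM (counts as a rate of the library's total, after TMM scaling for RNA composition) in the C719A strain and 1081, 972 and 1238 CPM in the G906D strain at 0 h, against 1885, 1755 and 2292 CPM in the WT. All 6 mutant libraries lay below the 3 WT libraries, and PGM2 was 2.24-fold lower in the C719A strain (log2 fold change -1.17 ± 0.21 SE, edgeR adjusted p = 8.03e-05) and 1.8-fold lower in the G906D strain (-0.85 ± 0.21, adjusted p = 0.00123). After 1 h it had 1216, 1873 and 1296 CPM in the C719A strain and 817, 1238 and 1028 CPM in the G906D strain, against 973, 1319 and 1587 CPM in the WT. The strains overlapped at 1 h and neither mutant passed the test. Its level at 2 h was 669, 720 and 605 CPM in the C719A strain and 762, 636 and 534 CPM in the G906D strain, against 2220, 1428 and 1461 CPM in the WT. This was 2.56-fold lower in the C719A strain (-1.36 ± 0.21, edgeR adjusted p = 9.58e-06) and 2.64-fold lower in the G906D strain (-1.40 ± 0.21, adjusted p = 4.23e-06), with no overlap. UGP1 had 922, 1040 and 887 CPM in the C719A strain and 946, 866 and 981 CPM in the G906D strain at 0 h, against 1240, 1417 and 1565 CPM in the WT. It was 1.48-fold lower in the C719A strain (edgeR adjusted p = 0.00194) and 1.51-fold lower in the G906D strain (adjusted p = 0.000909). After 1 h, UGP1 was the 1 glycogen gene that was higher in the C719A strain, with 1473, 1959 and 1564 CPM against 1025, 1261 and 1379 CPM in the WT (1.36-fold, edgeR adjusted p = 0.0178). That call was lost without WT library A or C719A library B at 1 h, with library size alone, and when only these 2 groups were fitted. By 2 h it had 889, 927 and 907 CPM in the C719A strain and 852, 796 and 696 CPM in the G906D strain, against 1756, 1329 and 1307 CPM in the WT. UGP1 was then 1.61-fold lower in the C719A strain (edgeR adjusted p = 0.000261) and 1.87-fold lower in the G906D strain (adjusted p = 7.18e-06).

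GLG1 and GLG2 encode the 2 glycogenins, which prime the chain by attaching glucose to themselves. GLG1 had 158, 204 and 157 CPM in the C719A strain and 126, 115 and 134 CPM in the G906D strain at 0 h, against 174, 210 and 205 CPM in the WT. It was 1.57-fold lower in the G906D strain (edgeR adjusted p = 1.23e-05), and its log2 difference in the C719A strain, -0.18 ± 0.11, did not pass the test. At 2 h GLG1 had 187, 193 and 182 CPM in the C719A strain and 141, 149 and 135 CPM in the G906D strain, against 315, 263 and 276 CPM in the WT. GLG1 was then 1.52-fold lower in the C719A strain (edgeR adjusted p = 2.97e-05) and 2.01-fold lower in the G906D strain (adjusted p = 1.69e-08), and it was also 1.37-fold lower in the G906D strain after 1 h (adjusted p = 0.00148). GLG2 was the exception to the pattern of the group. At 0 h it had 46.8, 67.2 and 49.0 CPM in the C719A strain and 41.7, 40.0 and 42.3 CPM in the G906D strain, against 28.1, 47.1 and 43.2 CPM in the WT. It was 1.38-fold higher in the C719A strain (edgeR adjusted p = 0.00776), with overlapping libraries, and this call was lost without WT library A or C719A library B at 0 h and when only these 2 groups were fitted. The G906D strain gave a log2 fold change of 0.07 ± 0.14, which did not pass the test. After 2 h, GLG2 had 152, 149 and 147 CPM in the C719A strain and 92.0, 85.1 and 78.1 CPM in the G906D strain, against 157, 151 and 148 CPM in the WT. It was 1.79-fold lower in the G906D strain (edgeR adjusted p = 8.7e-06), and the log2 fold change in the C719A strain was -0.03 ± 0.13, not past the test.

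GSY1 and GSY2 encode the 2 glycogen synthases and showed some of the largest differences of the group. At 0 h, GSY1 had 639, 788 and 609 CPM in the C719A strain and 1026, 1090 and 1193 CPM in the G906D strain, against 1928, 1736 and 2156 CPM in the WT. The 3 strains did not overlap, and GSY1 was 2.86-fold lower in the C719A strain (-1.51 ± 0.18, edgeR adjusted p = 2.7e-07) and 1.76-fold lower in the G906D strain (-0.81 ± 0.17, adjusted p = 0.000273). At 1 h it had 644, 923 and 665 CPM in the C719A strain and 386, 619 and 544 CPM in the G906D strain, against 812, 939 and 1033 CPM in the WT. The C719A strain overlapped the WT and did not pass the test, and the G906D strain was 1.8-fold lower (edgeR adjusted p = 0.000509). At 2 h GSY1 had 331, 324 and 313 CPM in the C719A strain and 253, 224 and 191 CPM in the G906D strain, against 1194, 827 and 841 CPM in the WT. GSY1 was then 2.95-fold lower in the C719A strain (edgeR adjusted p = 8.5e-08) and 4.29-fold lower in the G906D strain (adjusted p = 5.52e-10). GSY2 encodes the synthase that is known to carry most of the activity as yeast enters stationary phase. It had 557, 746 and 585 CPM in the C719A strain and 751, 799 and 871 CPM in the G906D strain at 0 h, against 1583, 1230 and 1815 CPM in the WT. These levels were 2.45-fold lower in the C719A strain (edgeR adjusted p = 3e-06) and 1.91-fold lower in the G906D strain (adjusted p = 8.58e-05). After 1 h it had 1169, 1479 and 1150 CPM in the C719A strain and 474, 817 and 661 CPM in the G906D strain, against 913, 1112 and 1200 CPM in the WT. The C719A strain again overlapped the WT, and GSY2 was 1.65-fold lower in the G906D strain (edgeR adjusted p = 0.00293). At 2 h GSY2 had 712, 727 and 683 CPM in the C719A strain and 526, 485 and 421 CPM in the G906D strain, against 2119, 1567 and 1589 CPM in the WT. It was 2.49-fold lower in the C719A strain (edgeR adjusted p = 1.44e-06) and 3.68-fold lower in the G906D strain (adjusted p = 5.4e-09), with no overlap.

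GLC3 encodes the branching enzyme, and at 2 h its level in the C719A strain lay between those of the other strains, as for most of the glycogen genes. At 0 h it had 567, 755 and 520 CPM in the C719A strain and 505, 496 and 636 CPM in the G906D strain, against 800, 934 and 1022 CPM in the WT. These levels were 1.5-fold lower in the C719A strain (edgeR adjusted p = 0.00189) and 1.68-fold lower in the G906D strain (adjusted p = 0.000109). At 1 h it had 1481, 1599 and 1490 CPM in the C719A strain and 891, 1341 and 1194 CPM in the G906D strain, against 1393, 1290 and 1505 CPM in the WT, and neither mutant passed the test. The level at 2 h was 1241, 1240 and 1233 CPM in the C719A strain and 843, 837 and 741 CPM in the G906D strain, against 2036, 1852 and 1916 CPM in the WT. The 3 strains did not overlap, and GLC3 was 1.56-fold lower in the C719A strain (-0.64 ± 0.15, edgeR adjusted p = 0.000641) and 2.4-fold lower in the G906D strain (-1.26 ± 0.15, adjusted p = 9.92e-08).

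Both genes of glycogen breakdown were lower in both mutants at 0 h and at 2 h. GPH1 encodes glycogen phosphorylase, which releases glucose 1-phosphate from the ends of the chains, and GDB1 the debranching enzyme. At 0 h, GPH1 had 317, 397 and 330 CPM in the C719A strain and 370, 337 and 421 CPM in the G906D strain, against 610, 606 and 944 CPM in the WT. These levels were 2.07-fold lower in the C719A strain (edgeR adjusted p = 7.9e-05) and 1.92-fold lower in the G906D strain (adjusted p = 0.000169). After 1 h it had 454, 620 and 454 CPM in the C719A strain and 206, 305 and 243 CPM in the G906D strain, against 309, 452 and 469 CPM in the WT. The C719A libraries overlapped the WT, and all 3 G906D libraries were below it (1.63-fold lower, edgeR adjusted p = 0.00603). At 2 h GPH1 had 245, 212 and 224 CPM in the C719A strain and 206, 206 and 189 CPM in the G906D strain, against 892, 607 and 577 CPM in the WT. These levels were 3.05-fold lower in the C719A strain (edgeR adjusted p = 2.24e-07) and 3.46-fold lower in the G906D strain (adjusted p = 3.27e-08). GDB1 had 445, 698 and 499 CPM in the C719A strain and 306, 273 and 336 CPM in the G906D strain at 0 h, against 612, 972 and 1080 CPM in the WT. The C719A call (1.62-fold lower, edgeR adjusted p = 0.00643) came with overlapping libraries and was lost without WT library C at 0 h, whereas the G906D libraries all lay below the WT (2.91-fold lower, adjusted p = 1.22e-06). At 1 h it had 1328, 1741 and 1304 CPM in the C719A strain and 712, 1334 and 1170 CPM in the G906D strain, against 1631, 1594 and 1767 CPM in the WT. GDB1 was 1.55-fold lower in the G906D strain (edgeR adjusted p = 0.0207), and the C719A strain did not pass the test. The G906D call was lost without WT library C or G906D library A at 1 h, and when only these 2 groups were fitted. At 2 h GDB1 had 1171, 1135 and 1036 CPM in the C719A strain and 783, 756 and 635 CPM in the G906D strain, against 2698, 2237 and 2283 CPM in the WT. These levels were 2.16-fold lower in the C719A strain (edgeR adjusted p = 7.5e-05) and 3.32-fold lower in the G906D strain (adjusted p = 1.67e-07).

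GAC1 encodes the subunit that directs the Glc7 phosphatase to glycogen synthase, which activates the synthase, and it was the 1 gene of the 10 that was lower in both mutants at all 3 times. At 0 h it had 409, 530 and 495 CPM in the C719A strain and 270, 269 and 339 CPM in the G906D strain, against 764, 565 and 790 CPM in the WT. These levels were 1.48-fold lower in the C719A strain (edgeR adjusted p = 0.00933) and 2.42-fold lower in the G906D strain (adjusted p = 1.77e-06). The C719A call at 0 h was lost without WT library C or without C719A library A. After 1 h it had 486, 585 and 418 CPM in the C719A strain and 266, 468 and 461 CPM in the G906D strain, against 985, 785 and 907 CPM in the WT. These levels were 1.8-fold lower in the C719A strain (edgeR adjusted p = 0.000593) and 2.24-fold lower in the G906D strain (adjusted p = 1.09e-05). At 2 h GAC1 had 537, 469 and 438 CPM in the C719A strain and 286, 260 and 234 CPM in the G906D strain, against 1316, 1231 and 1343 CPM in the WT. GAC1 was then 2.69-fold lower in the C719A strain (-1.43 ± 0.18, edgeR adjusted p = 3.63e-07) and 4.99-fold lower in the G906D strain (-2.32 ± 0.18, adjusted p = 1.31e-10), and the 3 strains did not overlap.

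Rises and falls over time were first counted within each strain, which does not compare the strains. The direct comparison of the changes follows below. In the first hour at 37 °C, 8 of 10 glycogen genes rose and none fell in the C719A strain, where 33.9% of all genes rose and 32% fell. In the G906D strain 5 rose and 2 fell (37.6% and 33.8% of all genes). In the WT 4 rose and 4 fell (30.8% and 30.2%). In the second hour, none of the 10 rose in either mutant. In the C719A strain 5 fell, where 7.5% of all genes fell and 7.74% rose, and in the G906D strain 4 fell, where 8.3% fell and 7.83% rose. In the WT 5 rose and none fell (10.4% and 13.6% of all genes). GLG2, GDB1, GLC3 and GLG1 rose in the first hour in all 3 strains. Their log2 fold changes in the C719A, G906D and WT strains were 1.35, 1.25 and 1.58 for GLG2, 1.41, 1.81 and 0.91 for GDB1, 1.31, 1.07 and 0.60 for GLC3, and 0.41, 0.47 and 0.28 for GLG1 (edgeR adjusted p between 3.17e-09 and 0.0246). The GLG1 rise in the WT was lost without WT library A at 0 h or WT library C at 1 h and when only these groups were fitted. GSY2 rose in the C719A strain (1.01 ± 0.18, edgeR adjusted p = 3.05e-05) and fell in the WT (-0.52 ± 0.18, adjusted p = 0.0141), and GPH1 and PGM2 did likewise, at 0.55 and 0.73 in the C719A strain and -0.81 and -0.61 in the WT. The WT falls of GSY2 and PGM2 in the first hour were lost with library size alone, where the median over all genes was 0.29, with FPKM, when only these groups were fitted, and without WT library C at 0 h or WT library A at 1 h. The GPH1 rise in the C719A strain was lost without C719A library A at 0 h or C719A library B at 1 h.

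The step of the second hour in the C719A strain was -1.20 ± 0.18 for GSY1, -1.17 ± 0.19 for GPH1, -1.14 ± 0.21 for PGM2, -0.88 ± 0.14 for UGP1 and -0.84 ± 0.18 for GSY2 (edgeR adjusted p between 8.87e-05 and 0.00246). In the G906D strain it was -1.22 ± 0.18 for GSY1, -0.67 ± 0.21 for PGM2, -0.62 ± 0.18 for GAC1 and -0.50 ± 0.15 for GLC3 (edgeR adjusted p between 6.12e-05 and 0.033). In the WT, GPH1 (0.76 ± 0.19), GSY2 (0.71 ± 0.18), GAC1 (0.54 ± 0.18), GLC3 (0.47 ± 0.15) and GLG2 (0.37 ± 0.13) rose (edgeR adjusted p between 0.0067 and 0.045). WT library A held the lowest WT value at 1 h for 6 of the 10 genes and the highest at 2 h for 9, with a summed level of 8390 CPM for the 10 genes at 1 h, against 9094 and 10225 CPM in libraries B and C, and 14704 CPM at 2 h, against 11493 and 11741 CPM. Without library A at 1 h, or without library A at 2 h, none of the 10 passed the test for the WT rise, while 2 passed without library B at 1 h and 3 without library C at 2 h. G906D library A at 1 h was low, with a sum of 4873 CPM against 7547 and 6602 CPM in libraries B and C, and without it 8 of 10 fell in the second hour in that strain, while 1 did without library B or C at 1 h or at 2 h. C719A library B at 1 h was high, with 11180 CPM against 8606 and 8689 CPM, and 5 to 6 genes passed the test when any 1 library was left out.

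**Figure D3:**
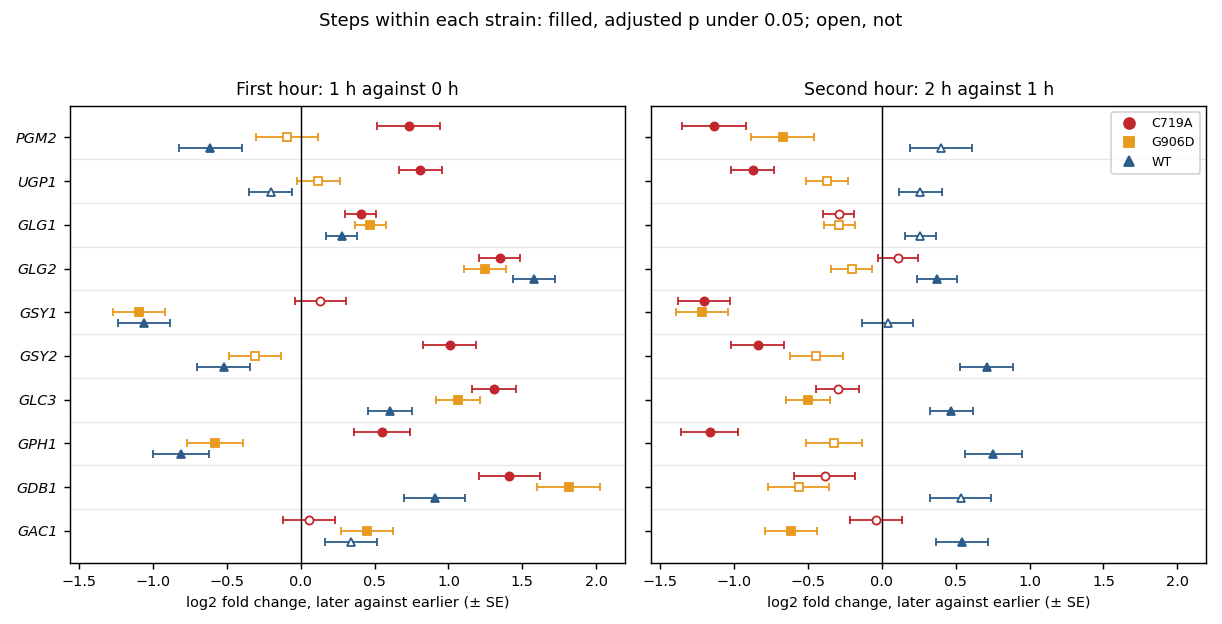
Log2 fold change (x axis, ± SE) of each glycogen gene over the first hour (1 h against 0 h, left) and the second hour (2 h against 1 h, right) at 37 °C in the C719A (circles), G906D (squares) and WT (triangles) strains, with filled symbols for an adjusted p under 0.05. In the second hour all 10 WT symbols lie right of 0 and the G906D symbols all lie left of it, from -1.22 for GSY1 to -0.21 for GLG2.

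These steps were compared between strains with the difference of the changes in the same model. Over the first hour, the change was larger in the C719A strain than in the WT for 6 of 10 genes and smaller for none, where 15.3% of all genes were called larger and 16.2% smaller: GSY2 (1.53 ± 0.25, edgeR adjusted p = 0.000143), GPH1 (1.36 ± 0.27), PGM2 (1.34 ± 0.30), GSY1 (1.20 ± 0.25), UGP1 (1.01 ± 0.20) and GLC3 (0.71 ± 0.21). These 6 calls held under all the settings tried and without any 1 library. For the G906D strain, GDB1 was the 1 gene of the 10 called over the first hour (0.91 ± 0.29, edgeR adjusted p = 0.0233). Of all genes, 15.6% had a larger and 13.8% a smaller change there. GDB1 no longer passed without WT library C or G906D library B at 0 h, without WT library B, G906D library B or G906D library C at 1 h, or when only the groups compared were fitted. With library size alone 4 of 10 passed (GDB1, GLC3, UGP1 and GLG1), and with FPKM 3 of 10 did. Over the second hour, a comparison added after the values were seen, the change was lower than in the WT for 8 of 10 genes in the C719A strain (15.5% of all genes, with 16.8% the other way) and 10 of 10 in the G906D strain (13.4%, with 16% the other way). The largest of these differences were -1.92 ± 0.27 for GPH1 and -1.55 ± 0.25 for GSY2 in the C719A strain (edgeR adjusted p = 5.02e-05 and 0.000165), and -1.25 ± 0.25 for GSY1 and -1.16 ± 0.25 for both GSY2 and GAC1 in the G906D strain (adjusted p = 0.000975, 0.00196 and 0.0018). With 1 library left out, 7 to 9 genes were called in the C719A strain and 8 to 10 in the G906D strain. GDB1 in the C719A strain was lost without C719A library B at 1 h or WT library A at 2 h. In the G906D strain, UGP1 was lost without 4 of the libraries in turn and when only the groups compared were fitted. GLG2 was lost there without 5 of the libraries in turn. The first and the second hour share the 1 h libraries, and both mutants share the WT libraries. The counts of either hour or mutant therefore do not stand as separate support. Over both hours together, 3 of 10 genes differed from the WT in the C719A strain, all lower (18.2% of all genes lower, 18.6% higher). In the G906D strain 5 of 10 differed, all lower (10.6% lower, 12.7% higher). In the C719A strain these were GAC1 (-0.87 ± 0.25), GLG2 (-0.50 ± 0.20) and GLG1 (-0.42 ± 0.15). GLG2 lay at the threshold (edgeR adjusted p = 0.0492). It was lost under 9 of 12 other settings and in 22 of the fits with 1 library left out. Among these settings was the replicate letter as a block within each strain (2 of 10 called). The GLG1 call was lost without WT library A or C719A library B at 0 h, or WT library A or C719A library C at 2 h. GAC1 alone remained with library size alone, with FPKM and when only the groups compared were fitted. Those in the G906D strain were GSY1 (-1.29 ± 0.25), GAC1 (-1.05 ± 0.25), GSY2 (-0.95 ± 0.25), GLG2 (-0.91 ± 0.20) and GPH1 (-0.85 ± 0.27), with edgeR adjusted p between 0.000572 and 0.024. The GPH1 call was lost with library size alone, with FPKM, and without WT library A or B or G906D library C at 0 h, or WT library A or G906D library C at 2 h.

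After 2 h against 0 h within each strain, 3 of 10 rose and 2 fell in the C719A strain (34.8% and 32.3% of all genes), 3 rose and 4 fell in the G906D strain (35% and 32%), and 5 rose and 1 fell in the WT (35.7% and 33.9%). GLG2 rose in all 3, by log2 1.45 in the C719A strain, 1.04 in the G906D strain and 1.95 in the WT, as did GDB1 (1.02, 1.25 and 1.44) and GLC3 (1.01, 0.56 and 1.07). GSY1 fell in all 3, with -1.07 ± 0.18 in the C719A strain, -2.31 ± 0.18 in the G906D strain and -1.02 ± 0.17 in the WT (edgeR adjusted p between 1.24e-10 and 1.37e-05). GAC1 rose in the WT (0.88 ± 0.18, edgeR adjusted p = 0.000107) and did not pass the test in either mutant. With library size alone the split of calls moved towards rises, to 5 rises and 1 fall in the C719A strain and 4 rises and 1 fall in the G906D strain, and the median of all genes was then 0.36 and 0.52. The fall of GSY1 and the rises of GLG2, GDB1 and GLC3 passed under each setting tried.

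Directly compared, the mutants differed in level for several of the genes. At 0 h, 4 of 10 were higher and 1 lower in C719A cells than in G906D cells (21.6% and 20.2% of all genes). Of these, GDB1 (0.84 ± 0.21), GAC1 (0.71 ± 0.18), GLG1 (0.47 ± 0.11) and GLG2 (0.40 ± 0.14) were higher and GSY1 was lower (-0.70 ± 0.17). The GLG2 call was lost without the genes of chromosome VII and without C719A library B, G906D library A or G906D library B. At 1 h, 7 of 10 were higher in C719A cells and none lower (17.9% and 19.4% of all genes), led by GPH1 (1.02 ± 0.19), GSY2 (0.96 ± 0.18) and UGP1 (0.72 ± 0.14). At 2 h, 7 of 10 were again higher and none lower (18.6% and 20.9%), led by GAC1 (0.89 ± 0.18), GLG2 (0.81 ± 0.14) and GDB1 (0.62 ± 0.21). GSY1 thus lay lower in the C719A strain before heat and higher after 1 h and 2 h (edgeR adjusted p = 0.00206, 0.0193 and 0.016), and its difference at 0 h no longer passed with library size alone, where the median of all genes was 0.30. The GSY1 call at 1 h was lost without C719A library B or G906D library A and when only these groups were fitted, and the call at 2 h was lost without G906D library C. Without G906D library C, 4 of 10 genes were called higher at 2 h.

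Shares within the paralog pairs were computed from FPKM, and no test over time was run on them. GSY2 made up 48.2% ± 1.3, 63.2% ± 1.47 and 68.7% ± 0.454 of the 2 synthase mRNAs in the C719A strain at 0 h, 1 h and 2 h (SD, n = 3). It made up 42.4% ± 0.0622, 55.7% ± 1.11 and 68.4% ± 0.673 in the G906D strain and 44.2% ± 2.28, 53.7% ± 0.659 and 65.0% ± 0.845 in the WT. At 1 h the 3 C719A libraries, at 61.7% to 64.6%, lay above the WT libraries at 53.0% to 54.3%. GLG1 made up 66.4% ± 1.21, 50.6% ± 0.95 and 43.7% ± 0.709 of the 2 glycogenin mRNAs in C719A cells at 0 h, 1 h and 2 h. Its share was 65.1% ± 1.06, 52.2% ± 0.98 and 50.8% ± 1.82 in G906D cells and 75.7% ± 3.12, 55.6% ± 1.34 and 53.5% ± 1.74 in the WT. After 2 h GLG2 mRNA was thus the more abundant glycogenin mRNA per length in the C719A strain. PGM2 made up 89.2% to 95.7% of the PGM2 and PGM1 mRNAs in the 9 group means. With 3 libraries against 3 the smallest p of the exact two-sided permutation test is 0.1, so no share of a mutant could pass against the WT, and the smallest value after adjustment over the 18 tests was 0.138.

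**Figure D4:**
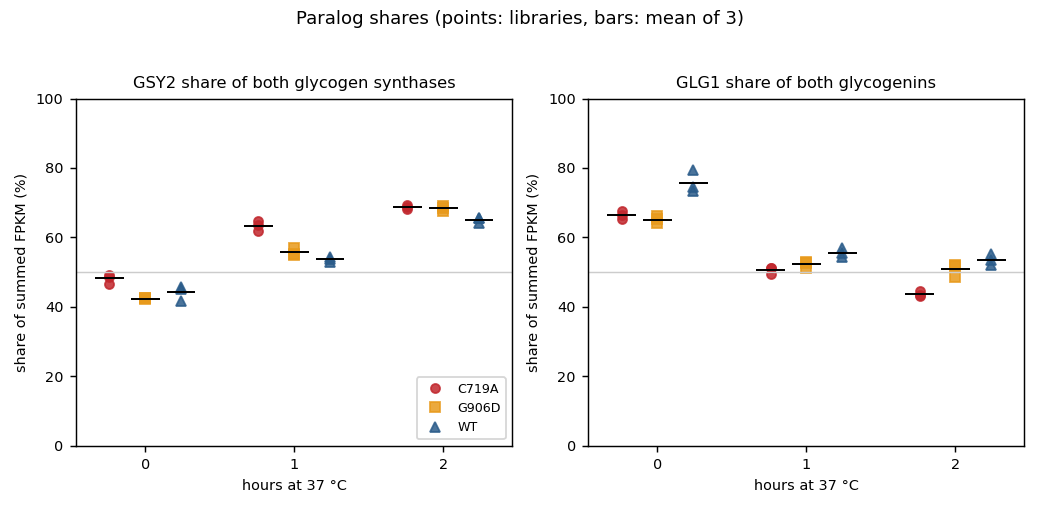
Share of the summed FPKM (y axis, percent) of GSY2 in both glycogen synthases (left) and of GLG1 in both glycogenins (right) by hours at 37 °C (x axis) in the C719A (circles), G906D (squares) and WT (triangles) strains, where points are libraries and bars the mean of 3. The GSY2 share is 42.4% to 48.2% at 0 h and 65.0% to 68.7% at 2 h, and the GLG1 share is 65.1% to 75.7% at 0 h and 43.7% to 53.5% at 2 h (group means).

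Genes that control or feed the pathway were compared in the same way, taken from lists drawn up by function with earlier results of these data known. Of 17 genes of glycogen control (among them Glc7 phosphatase subunits, the Pho85 kinase with its cyclins, Snf1 and the PAS kinases), 13 were lower and none higher in the C719A strain at 2 h and 13 were lower and 2 higher in the G906D strain, with medians of -0.40 and -0.41. Of all genes, 28.9% were lower and 27.5% higher in the C719A strain at 2 h and 33.2% lower and 31.9% higher in the G906D strain. Led by PIG2 and GIP2, 2 putative Glc7 subunits, they also held PSK1, a kinase that acts on Ugp1. PIG2 averaged 157 ± 1.82 CPM in the C719A strain and 160 ± 16.5 CPM in the G906D strain at 2 h, against 492 ± 46.0 CPM in the WT (SD, n = 3), which is a log2 fold change of -1.65 and -1.62. GIP2 had log2 fold changes of -1.01 and -1.26, and PSK1 of -0.85 and -1.01 (edgeR adjusted p between 6.51e-09 and 1.58e-05). At 0 h, 7 of the 17 were lower and 1 higher in the C719A strain (26.7% and 27% of all genes) and 10 lower and 3 higher in the G906D strain (33.2% and 30.9%). At 1 h, 3 were lower and 1 higher in the C719A strain (18.4% and 17.3%) and 3 lower and 3 higher in the G906D strain (15% and 16.3%). SNF4, the activating subunit of the Snf1 kinase, was the most changed of the 17 in the G906D strain at 0 h (1.48 ± 0.09, edgeR adjusted p = 2.83e-12), and it lies on chromosome VII. Of 5 further genes at the entry of glucose (HXK1, HXK2, GLK1, EMI2 and PGM1), 5 were lower at 0 h and 3 at 2 h in the C719A strain (26.7% and 28.9% of all genes). In the G906D strain 4 were lower and 1 higher at both times (33.2% of all genes lower at each, with 30.9% and 31.9% higher). At 1 h, 1 of the 5 was lower in the C719A strain, near the share of all genes (18.4%). In the G906D strain 2 were then lower and 1 higher (15% and 16.3% of all genes). The hexokinase HXK1 was lower in both mutants at 0 h and 2 h, at -0.96 and -1.54 in the C719A strain and -1.66 and -1.72 in the G906D strain. EMI2 was lower in both as well, at -1.56 and -0.99 in the C719A strain and -0.84 and -1.54 in the G906D strain. HXK2, which lies on chromosome VII, was higher in the G906D strain at 0 h and 2 h (0.98 and 1.02).

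Trehalose, the other storage sugar of yeast, is made from the same UDP-glucose. Of the 7 genes of its synthesis and breakdown, those that passed the test were all lower in the mutants. At 2 h, 5 of 7 were lower in the C719A strain (28.9% of all genes) and 7 of 7 in the G906D strain (33.2%). At 0 h, 4 were lower in C719A cells (26.7%) and 7 in G906D cells (33.2%), and at 1 h none passed in C719A cells and 3 were lower in G906D cells (15%). TSL1, a regulatory subunit of the synthase complex, averaged 1154 ± 53.0 CPM in the C719A strain and 1014 ± 175 CPM in the G906D strain at 2 h, against 2849 ± 370 CPM in the WT (log2 fold changes -1.30 and -1.49, edgeR adjusted p = 9.64e-06 and 1.1e-06). Msn2 and Msn4 are known to drive the general stress response. Of 19 of its effectors, 12 were lower and 1 higher in the C719A strain at 2 h (28.9% and 27.5% of all genes). In the G906D strain 14 were then lower and 2 higher (33.2% and 31.9% of all genes). At 0 h, 6 were lower and 4 higher in the C719A strain, which is 31.6% and 21.1% of the list. These shares were near those of all genes (26.7% and 27%). In the G906D strain 17 were lower and 1 higher at 0 h (33.2% and 30.9% of all genes). At 1 h, 1 was lower and 2 higher in the C719A strain (18.4% and 17.3% of all genes). In the G906D strain 5 effectors were then lower and 3 higher (15% and 16.3% of all genes). The values in the G906D strain at 2 h ran between RTN2 (-2.21) and HSP26 (1.76). Of 9 stress regulators, 7 were lower and none higher at 0 h, 3 lower and none higher at 1 h, and 4 lower and 1 higher at 2 h in the C719A strain. In G906D cells 6 were lower and 1 higher at 0 h, 4 lower and 1 higher at 1 h, and 7 lower and 2 higher at 2 h. Of all genes, 26.7%, 18.4% and 28.9% were lower at 0 h, 1 h and 2 h in the C719A strain, with 27%, 17.3% and 27.5% higher. In the G906D strain 33.2%, 15% and 33.2% of all genes were lower, with 30.9%, 16.3% and 31.9% higher. MSN4, which encodes an activator of stress genes, was lower in the G906D strain at 0 h, 1 h and 2 h (-0.96, -0.65 and -1.07, edgeR adjusted p between 1.43e-07 and 0.000277), while HSF1, the heat shock factor, which lies on chromosome VII, was higher (0.37, 1.13 and 0.99, adjusted p between 3.3e-10 and 0.00115). These lists were not compared with the glycogen genes by a test.

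**Figure D5:**
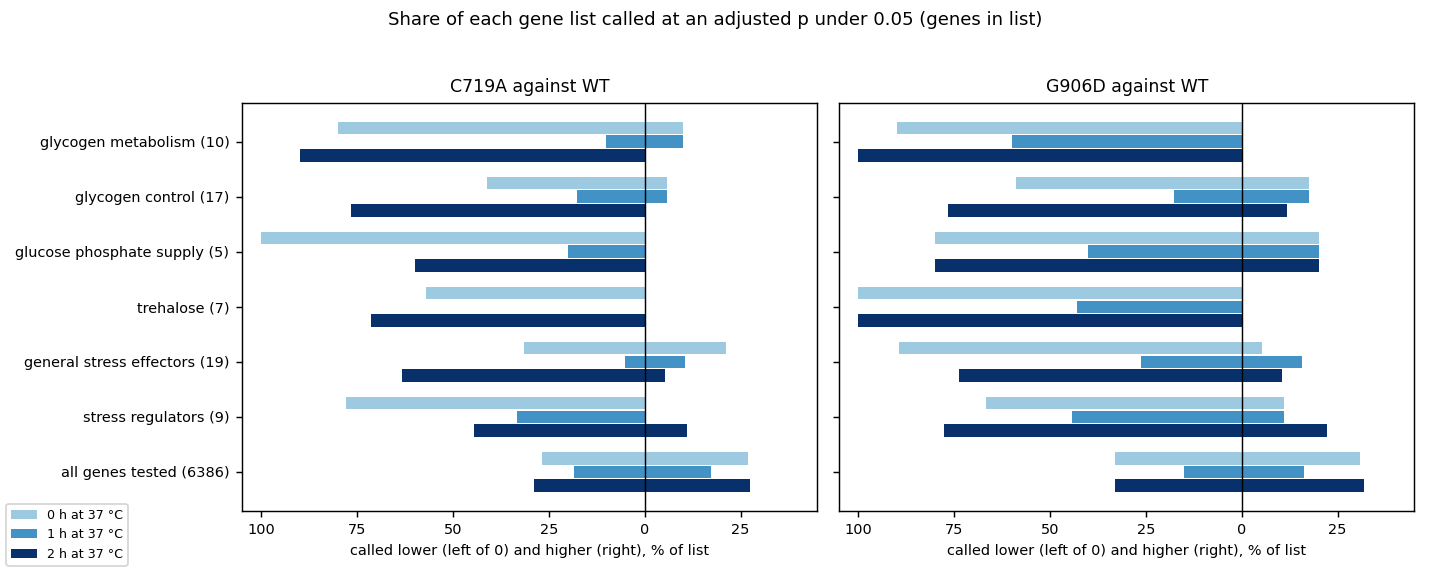
Share of each gene list (x axis, percent, number of genes in parentheses) called lower (bars left of 0) and higher (bars right of 0) in the C719A (left panel) and G906D (right panel) strains against the WT at 0 h, 1 h and 2 h (light to dark). The glycogen genes were called lower in 80%, 10% and 90% of members in the C719A strain and in 90%, 60% and 100% in the G906D strain.

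Across the 27 libraries, which share strains and times, the mRNAs most like the mean of the 10 genes on the log2 CPM scale among 4412 protein-coding genes included that of IST2, a membrane tether (Pearson's r = 0.967), and those of TPS1, the trehalose 6-phosphate synthase (0.964), YVC1, a vacuolar channel (0.953), and CYT1, cytochrome c1 (0.949). Of the 10 genes themselves, GLG1 (0.919), GSY2 (0.906), UGP1 (0.895) and GAC1 (0.862) lay closest to the mean of the other 9, and GSY1 (0.458) and GLG2 (0.298) farthest. GSY1 and GLG2 ran against each other (r = -0.418). GPH1 and GSY2, the phosphorylase and a synthase, ran together across the libraries (r = 0.933).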

How the data were processed

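Poly(A) mRNA was sequenced on an Illumina platform in 27 libraries (3 strains, 3 times, 3 biological replicates each). The sources do not say whether libraries with the same letter at different times came from the same culture. The authors deposited raw read counts per gene and FPKM values made from the same counts (counts divided by gene length and by the library's total, with lengths within 0.05% of those of R64). The submitters' processing notes name TopHat2 and Bowtie2, and the genome build, annotation and counting tool are not given in the sources used here. The libraries are not described as stranded, so reads of opposite strands are not separated.

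Genes were tested on the deposited counts with edgeR 4.0.16 in R 4.3.3 (TMM scaling, filterByExpr, quasi-likelihood F test), with 1 mean for each of the 9 groups of strain and time in a single model of 6386 genes. The p-values are two-sided and adjusted by Benjamini-Hochberg within each of 24 contrasts over all genes tested, with a threshold of 0.05. They measure the spread between the replicate libraries of a group, without pairing by letter. Values by library are CPM after TMM scaling, without a prior count. The study's methods do not state a test for these data. Alternatives were RLE or no scaling, TMM without ribosomal protein genes, a minimum of 10 counts in every library or no filter, DESeq2 1.42.0, limma 3.58.1 on log2(FPKM + 1) and log2(FPKM + 0.1), the replicate letter as a block, fits of only the groups compared, omission of chromosome VII, and each library left out in turn. Libraries with the same letter were checked for pairing by the correlation of their deviations from the group means over 4692 genes. All 3 letters were over 0.1 between the C719A times (0.155 to 0.547) and between WT 0 h and 1 h (0.106 to 0.414), which were taken as paired, and in no other pair of groups. Results are from the fit without the block, as designed. Motifs were searched and likeness computed with Python 3.11.15. Of the gene IDs, 6045 matched R64 locus tags.

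The glycogen genes and the other lists were chosen with earlier results of these data known. All 10 glycogen genes are described. From each other list, up to 3 genes with the largest absolute log2 fold change past the threshold were named per comparison with the WT, and the 5 genes most like the mean of the glycogen genes were taken from named protein-coding genes, provided that their average log2 CPM reached 5. The comparison of the second hour between strains and the window of 500 bases were added after the values were seen. Where a gene or sequence that these rules select is not named in the text, it is not reported here.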

Additional observations from a re-analysis of the deposited data

Results flagged for a closer look

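In 33 cases the change of a glycogen gene over time differed between a mutant and the WT by the test of that difference (edgeR quasi-likelihood, adjusted p under 0.05 over all genes), given here as the mutant's log2 change minus that of the WT. From 0 h to 1 h, GSY2 (1.53), GPH1 (1.36), PGM2 (1.34), GSY1 (1.20), UGP1 (1.01) and GLC3 (0.71) changed more upwards in the C719A strain, and GDB1 (0.91) did so in the G906D strain. From 0 h to 2 h, GAC1 (-0.87), GLG2 (-0.50) and GLG1 (-0.42) changed less upwards in the C719A strain, and GSY1 (-1.29), GAC1 (-1.05), GSY2 (-0.95), GLG2 (-0.91) and GPH1 (-0.85) lay below the WT change in the G906D strain. From 1 h to 2 h in the C719A strain the differences were -1.92 for GPH1, -1.55 for GSY2, -1.53 for PGM2, -1.24 for GSY1, -1.14 for UGP1, -0.92 for GDB1, -0.77 for GLC3 and -0.55 for GLG1. From 1 h to 2 h in the G906D strain they were -1.25 for GSY1, -1.16 for both GSY2 and GAC1, -1.10 for GDB1, -1.08 for GPH1, -1.07 for PGM2, -0.97 for GLC3, -0.63 for UGP1, -0.58 for GLG2 and -0.55 for GLG1. The intervals share libraries and the mutants share the WT libraries. Not all of these calls held under other settings or with 1 library left out, among them GLG2 and GLG1 in the C719A strain from 0 h to 2 h. WT library A at 2 h, whose 19 general stress effectors summed to 45137 CPM against 32636 and 32685 CPM in libraries B and C, enters the comparisons with 2 h, and its part in them was not tested beyond leaving it out.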

How the results depend on the processing

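Of 152 differences of a glycogen gene past the threshold, 115 stayed past it under every setting and without any 1 library, 31 were lost without some library, 26 under another setting, and 0 changed sign. Of the 45 between a mutant and the WT, 40 were never lost. The number of the 10 genes called moved by over 1.5 times as follows. With library size alone it was 1 in place of 2 for C719A against WT at 1 h, 4 in place of 1 for the G906D difference from the WT over the first hour, and 1 in place of 3 for the C719A difference from the WT over both hours, and limma on FPKM with either pseudocount gave 3 and 1 for these differences. When only the groups compared were fitted, it was 1 for C719A against WT at 1 h, 0 and 1 for the same differences, 8 in place of 5 for the C719A second hour, 2 in place of 4 for the G906D second hour, 5 in place of 8 for the WT first hour and 3 in place of 5 for the WT second hour. With library size alone the split of genes that rose and fell was 5 and 1 (in place of 3 and 2) for C719A at 2 h against 0 h, 6 and 1 (5 and 2) for G906D at 1 h against 0 h, 4 and 1 (3 and 4) for G906D at 2 h against 0 h and 5 and 2 (4 and 4) for WT at 1 h against 0 h, and C719A against G906D at 0 h gave 5 higher and 0 lower (4 and 1). The median of all genes was then 0.28 to 0.53 over the heat steps from 0 h. With 1 library left out, the count ranged from 1 to 2 for C719A against WT at 1 h, 4 to 7 for C719A against G906D at 2 h, 1 to 8 for the G906D second hour, 0 to 7 for the WT second hour, 0 to 2 for the G906D difference over the first hour and 1 to 4 for the C719A difference over both hours. The WT count for the second hour was 2 without WT library B at 1 h and 3 without WT library C at 2 h, and the G906D count was 1 without library B or C at 1 h or at 2 h. Values not past the test changed sign for GLG2, with 0.0070 (RLE and DESeq2) and 0.0016 (only the groups compared) for C719A against WT at 2 h, and -0.27 (library size alone), -0.23 and -0.24 (limma on FPKM) and -0.13 to 0.215 with 1 library left out for G906D against WT at 0 h, the lowest without WT library A. Deviations of same-lettered libraries correlated at -0.519 to 0.643 between strains at the same time, with 13 of 27 over 0.1 and 10 closest to their own letter, and at -0.707 to 0.547 between times within a strain, with 17 of 27 over 0.1 and 12 closest. All 3 letters were over 0.1 only between the C719A times and between WT 0 h and 1 h, where the replicate block changed no call of the 10 genes. With the letter as a replicate block within each strain, GLG2 lost its call for the WT second hour (4 called) and for the C719A difference over both hours (2 called), and no other call changed. With 3 libraries a group, the SE of 0.10 to 0.30 on the log2 scale, and not the depth, limited what could be told apart.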
